A study of Mus musculus with 15 samples.

Results

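The 12 GL261 tumor libraries of this RNA-seq study, of 15 libraries in all, were split at the step between the 50 and the 100 µg dose. The high-dose set held 6 libraries, 3 at 100 µg and 3 at 200 µg per dose, and the low-dose set held 6 libraries, 3 untreated and 3 at 50 µg per dose. Membership was set by sample title alone, with no measured value. GL261 is a mouse glioma line that was grown in the brains of C57BL/6 mice, and all tumor libraries come from that model. The treated mice received B20.4.1.1, a Genentech antibody that binds VEGF-A, every 3 days from day 10 after implantation until the endpoint, so the groups differed in the amount per dose and not in the schedule. The untreated group is given as a dose of 0 µg, and the labels name no control antibody. Mice were perfused with saline before the tumors were taken and frozen, so a library holds RNA of tumor cells together with host vessels and immune cells. The labels do not say whether the 3 samples of a group were single mice, and p-values speak only for the spread among these samples. For replicate 3 of every tumor group the agent tag disagreed with the title or was missing, 4 libraries in all, and the titles were followed. The tag read 50 µg for untreated replicate 3, 100 µg for 50 µg replicate 3 and 200 µg for 100 µg replicate 3. It was missing for 200 µg replicate 3.

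VEGF-A is the main growth factor for blood vessels. It signals through the receptors Flt1 and Kdr on endothelial cells, with the neuropilins Nrp1 and Nrp2 as co-receptors. In glioma, where vessels are abundant and leaky, blocking it prunes vessels and narrows the supply of oxygen and nutrients. Cells that run short of amino acids or meet other stress translate the transcription factor ATF4, which switches on genes for amino acid import and synthesis.

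Values are FPKM (fragments for each kilobase of transcript and each M of mapped fragments), summed for each gene over the deposited transcripts on its exons. Differences are log2 fold changes of FPKM + 1, high-dose minus low-dose, from limma over 14207 genes. A gene was called when its p-value adjusted by the Benjamini-Hochberg method was under 0.05. Estimated depth was 17.7 to 20.6 M fragments in the low-dose libraries and 20.8 to 28.1 M in the high-dose libraries, with no overlap (exact permutation p = 0.00216, two-sided, adjusted p = 0.00866 over 4 library properties). The share of genes that the assembly listed in separate pieces was 14.8 to 27.9% in the low-dose libraries and 5.13 to 16.1% in the high-dose libraries (exact permutation p = 0.00866, two-sided, adjusted p = 0.0173). This share was 5.13 to 6.39% in the 200 µg libraries and 100 µg replicate 3, and 13.2% or more in the other 8. Principal component 1, with 25% of the total, set the same 4 libraries apart, at 39.3 to 49.5. Among these, 100 µg replicate 3 bears an agent tag of 200 µg. Replicate 3 at 50 µg stood apart on the second component, at -85.1, and listed 88071 transcripts against 45477 to 49201 in the other low-dose libraries. What part depth and assembly have in the results was not tested, and a fit with an added term for these 4 libraries is given beside the main results. That fit sets 100 µg replicates 1 and 2 against the 6 low-dose libraries, because every low-dose library had many genes in pieces.

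**Figure D1:**
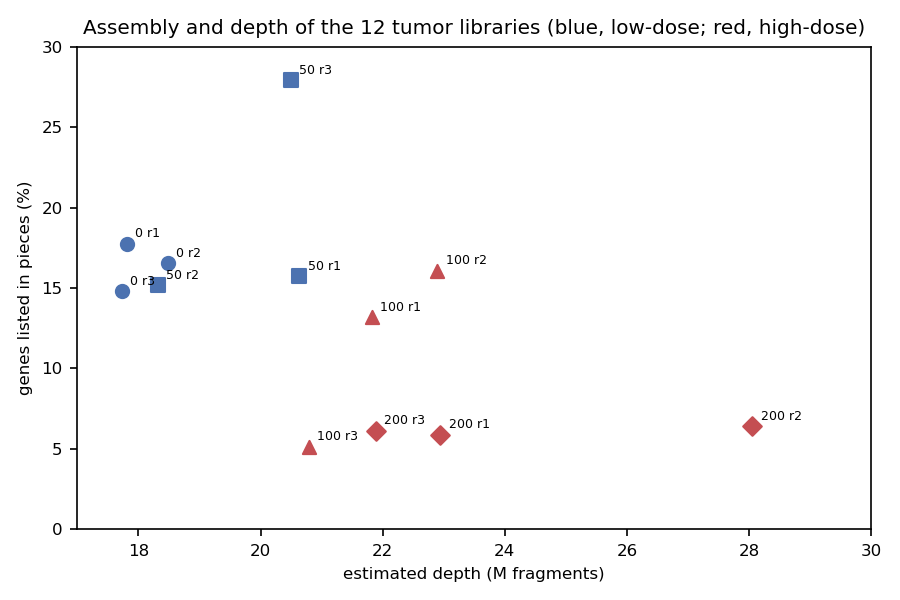
Each point is 1 tumor library, with estimated depth in M fragments on the x axis and the percentage of genes listed in pieces on the y axis; blue marks low-dose and red high-dose libraries, labelled by dose in µg and replicate. The 200 µg libraries and 100 µg replicate 3 sit between 5.13 and 6.39%, and 50 µg replicate 3 sits at 27.9%.

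High doses were compared with low or no dose to ask which genes differ across the step from 50 to 100 µg. Cp, Lbp, Jag1, Csn3 and a group of genes of amino acid supply rose, and Tmem119, Rhd, Krt18, Epcam and Vgf fell. In all 643 genes were called, 4.53% of those tested, with 467 higher (3.29%) and 176 lower (1.24%) in the high-dose libraries. The libraries did not overlap for 265 of the higher genes and 84 of the lower genes, while over all genes tested 332 were fully separated upward (2.34%) and 114 downward (0.802%). Higher genes made up 72.6% of the calls, and 60.5% of 608 calls when libraries were scaled by median of ratios. With the term for the 4 libraries, 88 genes were called, 57 higher and 31 lower, of which 49 were among the 643. All 643 kept their direction, but the libraries of that fit also chose these genes, so this tests nothing. The 100 µg libraries alone against the low-dose set gave 14 calls and the 200 µg libraries alone gave 1755.

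**Figure D2:**
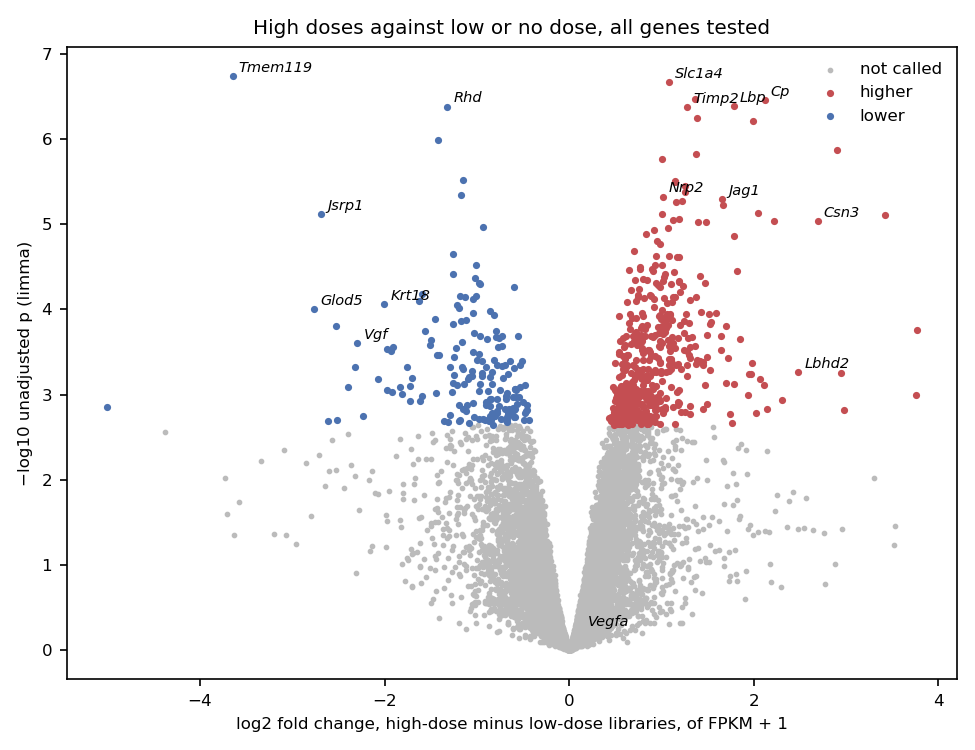
Each point is 1 of 14207 genes, with the log2 fold change of FPKM + 1 (high-dose minus low-dose libraries) on the x axis and −log10 of the unadjusted limma p on the y axis. Red marks the 467 genes called higher and blue the 176 called lower; Tmem119 lies at -3.65 and Slc1a4 at 1.08, and Vegfa, near the base, at 0.14.

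The called genes moved mostly between 50 and 100 µg. The higher genes had a median log2 fold change of 0.86 between the sets. Their medians by interval were 0.04 from untreated to 50 µg, 0.71 from 50 to 100 µg and 0.25 from 100 to 200 µg. Each median is of a separate contrast, so the intervals do not add up to the difference between the sets. For the lower genes the medians were -0.97, -0.07, -0.83 and -0.17 in the same order. Over all genes the corresponding medians were 0.05, -0.08, 0.06 and 0.05. A gene is called partly because its values differ little inside each set, and the change from 50 to 100 µg uses the libraries that chose the genes, so these medians describe the calls and test nothing. Some genes named for the whole difference did not keep to this step. Vgf differed by -0.94, -1.26 and -1.14 over the 3 intervals, Nupr1 by 1.00 from untreated to 50 µg and 1.02 from 50 to 100 µg, and Slc7a11 by 0.86 and 0.59. The list of serine, one-carbon, asparagine and proline synthesis had medians of 0.23 and 0.13 in the same intervals. Of the 467 higher genes, 265 had a positive difference from untreated to 50 µg and 385 from 100 to 200 µg. Over all 14207 genes the counts were 5704 and 7870.

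Tested one interval at a time, the 12 libraries gave few calls. By limma with 4 dose groups, no gene was called between untreated and 50 µg tumors (0% of 14207, with 576 at an unadjusted p under 0.05), and none between 50 and 100 µg (0%, with 1357). Between 100 and 200 µg 8 genes were called (0.0563%), 6 higher (0.0422%) and 2 lower (0.0141%) at 200 µg (with 1236 at an unadjusted p under 0.05), and none of them was among the 643. The largest was Gm12191, a predicted gene, at -5.64 (adjusted p = 3.06e-07 by limma), and 7 of the 8 share transcripts or sequence with other genes and are uncertain. Replicate 3 at 100 µg decided this count, which was 572 without it.

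**Figure D3:**
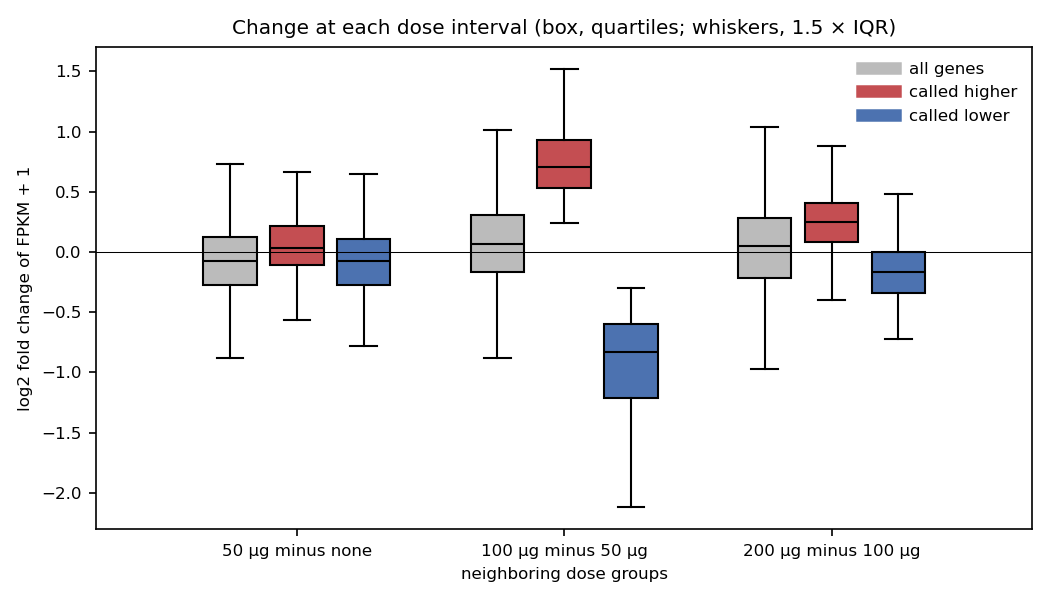
Boxes give the quartiles of the log2 fold change of FPKM + 1 at each interval between neighboring doses, with whiskers at 1.5 times the box height, for all 14207 genes (grey), the 467 higher genes (red) and the 176 lower genes (blue). The red and blue medians are 0.04 and -0.07 from untreated to 50 µg, 0.71 and -0.83 from 50 to 100 µg, and 0.25 and -0.17 from 100 to 200 µg.

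Among VEGF ligands, receptors and neuropilins, 1 of 8 tested genes was called, Nrp2, beside 4.53% of all genes, and the median of the list was -0.03. Nrp2, the neuropilin known best for lymphatic and semaphorin signaling, lies at chr1:62703285-62818695 on the plus strand of mm10. Its values ran from 4.32 through a median of 5.71 to 6.86 FPKM in the low-dose libraries and from 9.80 through 12.9 to 15.2 FPKM in the high-dose libraries. No high-dose library came down to the low-dose range, and the log2 fold change was 1.01 (SE 0.13, adjusted p = 0.00337 by limma). It was 0.13 from untreated to 50 µg and -0.06 from 100 to 200 µg. The call was lost with the term for the 4 libraries (0.92, adjusted p = 0.0515) and with a plain sum of FPKM (0.97, adjusted p = 0.0818).

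Vegfa, the ligand that the antibody binds, was at 30.3, 62.1 and 81.0 FPKM (lowest, median and highest) in the low-dose libraries and at 48.1, 56.8 and 85.9 FPKM in the high-dose libraries. The sets overlapped widely, with a log2 fold change of 0.14 ± 0.24 (SE) with an adjusted p = 0.775 by limma. The antibody acts on the protein, so this transcript is no check of the dose labels. Kdr, the main signaling receptor, had a mean of 2.76 ± 1.20 FPKM in low-dose and 2.93 ± 1.46 in high-dose libraries (SD, n = 6), a log2 fold change of 0.03. Flt1, the high-affinity receptor, gave -0.09, Nrp1 gave 0.29 and Flt4, the lymphatic receptor, gave -0.25. Placental growth factor, Pgf, which binds Flt1, had the largest difference among the genes not called, -0.73 (SE 0.23, adjusted p = 0.0882 by limma). None of these misses shows that the gene did not differ.

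Endothelial marker genes gave no call among 16 tested, beside 4.53% of all genes called, with a median of -0.06 and 6 positive differences. At that share this list, and the tip cell and pericyte lists below, can hold no call by their size alone. At an unadjusted p under 0.05 limma called 3071 of all genes. Cldn5, the tight junction protein of brain endothelium, had means of 34.9 and 35.3 FPKM in low-dose and high-dose libraries, and Pecam1 means of 3.86 and 4.09 FPKM. The summed level of the 18 endothelial genes was 89.6 to 153 FPKM in the low-dose libraries and 53.2 to 134 FPKM in the high-dose libraries. None of 13 tip cell genes, which mark sprouting vessels, and none of 11 pericyte genes was called. Esm1, a tip cell gene, had means of 8.32 and 3.05 FPKM (adjusted p = 0.15 by limma), and Rgs5, a pericyte gene, 8.72 and 22.1 FPKM (adjusted p = 0.071).

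Of 11 tested genes of the blood-brain barrier 4 were higher and none was lower, beside 3.29% of all genes higher, and the median was 0.48. Abcg2, a drug efflux pump, was at 3.16, 3.61 and 5.45 FPKM (lowest, median, highest) in the low-dose and at 5.73, 6.80 and 9.23 FPKM in the high-dose libraries. These ranges did not overlap (0.75 ± 0.15 on the log2 scale, SE; adjusted p = 0.0168 by limma). Slco1a4, an organic anion carrier, was listed at 0 in untreated replicate 3 and reached 1.75 FPKM in the low-dose libraries, against 1.91 to 7.56 FPKM in the high-dose libraries (log2 fold change 1.42, adjusted p = 0.022). Abcc4, another efflux pump, rose by 0.61 (adjusted p = 0.022), and Slc7a5, the large neutral amino acid carrier, by 0.73 (adjusted p = 0.0166). The calls of Slco1a4 and Abcc4 were lost when single libraries were left out, at an adjusted p of up to 0.0599 without 200 µg replicate 1 for Slco1a4 and up to 0.0588 without 200 µg replicate 2 for Abcc4. None of the 4 was called with the term for the 4 libraries or with a plain FPKM sum. Slc2a1, the glucose carrier of barrier endothelium and of hypoxic tumor cells, had means of 200 and 85.7 FPKM and was not called (log2 fold change -1.09, adjusted p = 0.085).

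Several lists concerned amino acid supply. Of 13 amino acid transporters tested, 4 rose and none fell, of 13 genes of serine, one-carbon, asparagine and proline synthesis 3 rose, of 13 stress regulators around ATF4 4 rose, and of 11 genes of transsulfuration and glutathione 3 rose, beside 3.29% of all genes higher and 1.24% lower. The medians of these lists were 0.49, 0.42, 0.43 and 0.04, beside 0.05 over all genes, and differences were positive for 12, 11, 11 and 6 members. Cytosolic tRNA synthetases had 1 higher gene of 20 and a median of 0.21. With the term for the 4 libraries the counts of called genes were 0 for the ATF4 list, 0 for serine and one-carbon synthesis, 1 for the transporters and 0 for transsulfuration, with medians of 0.43, 0.35, 0.63 and 0.08.

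Slc1a4, a carrier of alanine, serine and cysteine, lies at chr11:20302180-20332713 on the minus strand. It was at 11.9, 13.2 and 15.6 FPKM (lowest, median, highest) in the low-dose libraries and at 24.4, 29.7 and 31.7 FPKM in the high-dose libraries. The ranges were far apart and narrow, and the log2 fold change of 1.08 ± 0.11 (SE) with an adjusted p = 0.000858 by limma had the smallest p of the higher genes. It was 0.95 (adjusted p = 0.0148) with the term for the 4 libraries. Slc7a5, the leucine and tryptophan carrier, ran from 53.8 to 92.4 FPKM and from 96.8 to 139.5 FPKM, again without overlap. Slc7a11, the cystine carrier that feeds glutathione synthesis, was less abundant, with 1.19, 1.87 and 5.46 FPKM in low-dose and 4.23, 6.18 and 11 FPKM in high-dose libraries. Its sets overlapped (log2 fold change 1.19, adjusted p = 0.0328), its sign turned under a plain FPKM sum (-0.15, adjusted p = 0.916), and its call was lost without any of 8 single libraries, at an adjusted p of up to 0.0789 without 200 µg replicate 1. Slc7a1, the arginine carrier, rose by 0.57 and lost its call without any of 6 single libraries (adjusted p up to 0.071 without 200 µg replicate 1).

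The enzymes moved with the carriers in part. Cth, which makes cysteine from cystathionine, was at 4.32, 8.07 and 15.8 FPKM in the low-dose and at 17.8, 22.5 and 33.8 FPKM in the high-dose libraries, a log2 fold change of 1.38 ± 0.29 (SE) with an adjusted p = 0.022 by limma. Inside the low-dose set its difference from untreated to 50 µg was 1.16, which was not called (adjusted p = 0.893). Aldh1l2, the mitochondrial folate enzyme, had means of 15.1 ± 5.16 and 34.5 ± 10.01 FPKM (SD, n = 6), and rose by 1.15 (adjusted p = 0.0187). Asns, asparagine synthetase, went from a mean of 59.3 to 91.1 FPKM, and Phgdh, the first enzyme of serine synthesis, from 78.3 to 111 FPKM. Phgdh shares transcripts or sequence with another gene and is uncertain. Asns and Phgdh passed narrowly (adjusted p = 0.0418 and 0.0445) and lost their calls without 8 and 10 of the single libraries, at up to 0.0984 and 0.108 without 200 µg replicate 1. Cth lost its call without 3 of them, at up to 0.0581 without that library. Gclc, the catalytic subunit of the first enzyme of glutathione synthesis, rose by 0.70 (adjusted p = 0.0348), and lost its call without 7 of them (up to 0.085 without 50 µg replicate 1). Wars, the tryptophan tRNA synthetase, ran from 29.7 to 37.3 FPKM in the low-dose and from 45.6 to 69.5 FPKM in the high-dose libraries, and rose by 0.77 (adjusted p = 0.00896), or by 0.97 (adjusted p = 0.0192) with the term for the 4 libraries.

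Of the regulators, Atf5, a relative of ATF4 that is induced in the same response, was at 44.6, 55.1 and 135 FPKM in the low-dose libraries and at 123, 157 and 222 FPKM in the high-dose libraries (1.29 ± 0.25 on the log2 scale, SE; adjusted p = 0.0168 by limma). Chac1, a glutathione-degrading enzyme, ran from 7.69 to 22.1 FPKM and from 22.3 to 41.1 FPKM, touching without overlap (1.20, adjusted p = 0.0152). Nupr1, a small stress-induced chromatin protein, was at 23.7, 40.5 and 85.6 FPKM and at 84.0, 143 and 193 FPKM (1.53, adjusted p = 0.0241), and lost its call without any of 4 single libraries (up to 0.0656 without 200 µg replicate 1). Vldlr, a lipoprotein receptor, rose by 1.05 (adjusted p = 0.0157). Atf4 itself was at 192, 222 and 533 FPKM in low-dose and 332, 389 and 484 FPKM in high-dose libraries and was not called (0.59, adjusted p = 0.179). Without 50 µg replicate 3, Atf4 was called at 0.79 (adjusted p = 0.0256). Ddit3, the CHOP factor of the same pathway, gave 0.34 and Trib3 -0.16, and neither was called.

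The risen genes of these lists were searched for TGATGNAA (on the other strand TTNCATCA), the core of the element bound by ATF4 with C/EBP partners, in the RefSeq promoter windows of GRCm38.p6, which run from 250 bases before to 50 bases after a start site. Of 14 risen genes 9 matched a window and 6 of them held the motif, Asns, Chac1, Nupr1, Slc1a4, Slc7a11 and Vldlr. Of the 45 matched list genes that did not rise 8 held it, as did 4.51% of 27025 genes and 3.97% of 32851 windows. The list genes were drawn up around a response that is known to use this element, so the counts are a description and a match is not a site. The 250 bases before the start are shown for 3 of the 6, picked as examples after their matches were seen, among genes whose ranges are given above, 5′ to 3′ on the strand of the gene, with the motif in capitals. They lie at chr2:119350992-119351241 on the plus strand for Chac1, chr7:126625471-126625720 on the minus strand for Nupr1 and chr3:50443614-50443863 on the minus strand for Slc7a11.
Chac1: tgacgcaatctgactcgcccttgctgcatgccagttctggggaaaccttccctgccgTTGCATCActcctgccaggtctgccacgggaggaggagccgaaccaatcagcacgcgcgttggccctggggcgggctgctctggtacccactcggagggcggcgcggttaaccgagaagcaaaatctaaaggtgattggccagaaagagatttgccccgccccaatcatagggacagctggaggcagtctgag
Nupr1: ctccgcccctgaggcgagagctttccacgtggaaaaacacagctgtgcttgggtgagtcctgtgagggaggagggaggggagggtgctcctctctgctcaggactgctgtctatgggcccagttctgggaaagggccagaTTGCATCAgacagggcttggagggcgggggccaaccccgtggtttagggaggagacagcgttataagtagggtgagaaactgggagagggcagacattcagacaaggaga
Slc7a11: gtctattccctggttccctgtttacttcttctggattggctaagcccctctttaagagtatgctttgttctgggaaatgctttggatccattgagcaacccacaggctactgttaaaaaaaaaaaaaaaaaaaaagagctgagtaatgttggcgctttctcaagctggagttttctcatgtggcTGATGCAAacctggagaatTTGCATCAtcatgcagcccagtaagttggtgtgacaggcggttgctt
Slc7a11 held a copy on each strand, and the copies in Chac1 and Nupr1 read as TTGCATCA on the strand shown.

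The largest rises among genes with no overlap, not marked as uncertain and with a mean of at least 5 FPKM in the high-dose set lay outside these lists. Csn3, known as the kappa casein of milk, was at 4.73, 6.43 and 10.3 FPKM in low-dose and at 17.8, 60.2 and 111 FPKM in high-dose libraries (2.69 ± 0.38 on the log2 scale, SE; adjusted p = 0.00393 by limma). All 6 high-dose values lay above the low-dose range, although they spread widely. Lbhd2 came next, listed at 0 to 4.19 FPKM in low-dose and at 4.35 to 26.2 FPKM in high-dose libraries (2.48, adjusted p = 0.0248). It lost its call with the term for the 4 libraries (2.52, adjusted p = 0.179) and without any of 4 single libraries (up to 0.0678 without 200 µg replicate 1). Cp, ceruloplasmin, the copper protein that oxidises iron for export, lies at chr3:19957054-20009145. It rose from 3.94, 6.46 and 8.27 FPKM to 17.9, 32.1 and 43.6 FPKM, a log2 fold change of 2.12 ± 0.22 (SE) with an adjusted p = 0.000858, with 0.18 inside the low-dose set and 0.79 inside the high-dose set. Cp was at 17.9 to 27.6 FPKM in the 100 µg libraries and at 36.6 to 43.6 FPKM in the 200 µg libraries. Lbp, the binding protein for bacterial lipopolysaccharide, rose from 10.6, 11.8 and 20.8 FPKM to 35.9, 50.6 and 62.1 FPKM (1.78 ± 0.19, SE; adjusted p = 0.000858). Csn3, Cp and Lbp kept their calls with the term for the 4 libraries, at 2.97, 1.58 and 1.71 (adjusted p = 0.046, 0.0192 and 0.0214). All 3 lost them when libraries were regrouped by agent tag, at 2.41, 1.74 and 1.36 (adjusted p = 0.0635, 0.0506 and 0.0937). With 100 µg alone against the low-dose set Csn3 and Lbp were not called (adjusted p = 0.0563 and 0.052), nor was Csn3 against 50 µg alone (adjusted p = 0.125).

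Of 12 iron genes tested 2 rose, Cp and Trf, beside 3.29% of all genes, and the median was 0.27. Trf, the iron carrier transferrin, had means of 103 and 315 FPKM (1.5, adjusted p = 0.0214), is uncertain because of neighboring transcripts or copies, and lost its call without 50 µg replicate 1 (1.47, adjusted p = 0.0519) or 200 µg replicate 2. Ferritin genes Fth1 and Ftl1 and the importer Tfrc were not called. Of 11 acute-phase genes Cp and Lbp rose, beside 3.29% of all genes higher, and 1 fell, beside 1.24% lower. The gene that fell was Cd14, the partner of Lbp in sensing lipopolysaccharide. Cd14 went from 10.9, 17.3 and 25.5 FPKM to 5.49, 9.43 and 11.9 FPKM. The change of Cd14 was -0.86 (adjusted p = 0.0447), lost without any of 10 single libraries (up to 0.0978 without 50 µg replicate 1), and -1.33 (adjusted p = 0.0461) with the term for the 4 libraries. Serpina3n, another acute-phase gene, had means of 259 and 272 FPKM and was not called.

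In the Notch pathway, by which neighboring cells signal to each other, 2 of 13 tested genes rose and none fell, beside 3.29% of all genes higher, with a median of 0.61. Jag1, a Notch ligand, was at 5.49, 6.03 and 10 FPKM in low-dose and at 16.2, 22.5 and 40.4 FPKM in high-dose libraries (1.66 ± 0.22 on the log2 scale, SE; adjusted p = 0.00342 by limma). Hes1, a classical target gene, ran from 3.62 to 10.9 FPKM and from 11 to 22.8 FPKM, which touch without overlap (1.31, adjusted p = 0.0185). Notch1 had means of 13.6 and 28.7 FPKM and missed the threshold (0.95, adjusted p = 0.056). The ligands Dll1, Dll3 and Dll4 had differences of 0.63, -1.33 and -0.32 and were not called. Jag1 was at 1.58 (adjusted p = 0.0571) and Hes1 at 1.65 (adjusted p = 0.0689) with the term for the 4 libraries.

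Growth factor genes rose in small numbers. Of 5 tested FGF ligands and receptors 2 rose, beside 3.29% of all genes. Fgf1 was listed at 0 to 0.852 FPKM in the low-dose libraries and at 1.70 to 3.48 FPKM in the high-dose libraries, with no overlap (1.26 ± 0.17, SE; adjusted p = 0.00334 by limma). Fgfr1, a receptor for it, rose by 1.25 (adjusted p = 0.0421), a call lost without any of 10 single libraries (up to 0.103 without 200 µg replicate 1). Spry4, a feedback inhibitor that FGF and other growth factors induce, went from 12.2, 16.4 and 23.2 FPKM to 27.1, 48.0 and 67.7 FPKM (1.38, adjusted p = 0.0112). Smad3, which carries TGF-beta signals to the nucleus, was the only called gene of 9 in its list, beside 4.53% of all genes called. It was at 3.03 to 4.67 FPKM and 7.98 to 11 FPKM (1.01, SE 0.12, adjusted p = 0.00188 by limma). Cyclin D2 (Ccnd2) went from 48.4 to 84.5 FPKM in low-dose to 119 to 163 FPKM in high-dose libraries (1.13, adjusted p = 0.00393 by limma). It was the only call among 15 genes of early cell cycle control. At a share of 4.53%, lists of 9 or 15 genes can hold 1 call by their size alone. Smad3 stayed called with the term for the 4 libraries (0.93, adjusted p = 0.0366) and Ccnd2 did not (1.01, adjusted p = 0.0691).

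**Figure D4:**
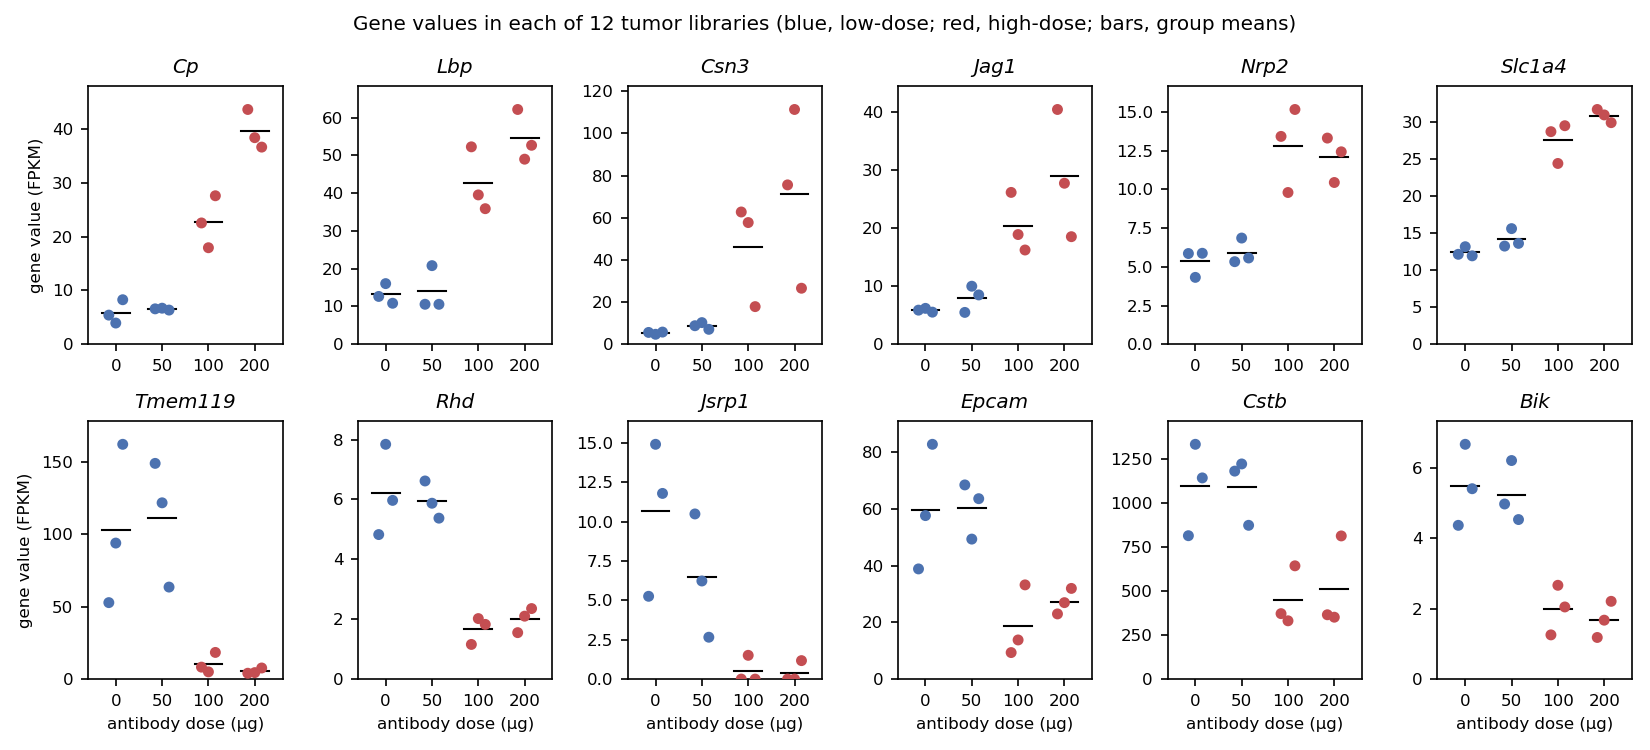
Each panel shows the FPKM of 1 gene in each of the 12 tumor libraries by antibody dose in µg, with blue for low-dose and red for high-dose libraries and a bar at each group mean of 3. In the upper row all red points lie above all blue points; in the lower row the red points lie below, with Tmem119 at 4.03 to 18.4 FPKM against 52.8 to 162 FPKM.

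The largest fall among genes not marked as uncertain was that of Tmem119, a membrane protein widely used to mark microglia, at chr5:113793729-113800516 on the minus strand. Its values were 52.8, 108 and 162 FPKM (lowest, median, highest) in the low-dose libraries and 4.03, 6.33 and 18.4 FPKM in the high-dose libraries. The lowest low-dose value was above every high-dose value, and the log2 fold change was -3.65 (SE 0.36, adjusted p = 0.000858 by limma). It was -3.75 (adjusted p = 0.0162) with the term for the 4 libraries and was called in all 34 alternatives run. In bulk tumor RNA, fewer cells of a type and less RNA per cell cannot be told apart. Of 9 tested microglia genes Olfml3 also fell (-0.86, adjusted p = 0.0395 by limma), beside 1.24% of all genes lower. The remaining 7 lay between -0.45 and 0.00, with P2ry12 at means of 1.90 and 1.72 FPKM. Olfml3 is uncertain for shared transcripts and lost its call without any of 9 single libraries (up to 0.0851 without 50 µg replicate 1). Summed over all 12 microglia genes the level was 148 to 254 FPKM in low-dose and 50.0 to 86.9 FPKM in high-dose libraries, and without Tmem119 it was 61.8 to 96.0 FPKM and 42.4 to 73.9 FPKM.

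Rhd, the Rhesus blood group protein of red blood cells, at chr4:134864536-134896172, fell from 4.83, 5.92 and 7.84 FPKM to 1.16, 1.92 and 2.36 FPKM (-1.32 ± 0.14 on the log2 scale, SE; adjusted p = 0.000858 by limma). Its ranges were clear of each other, and the call held in all 32 alternatives run, with -1.46 (adjusted p = 0.0096) with the term for the 4 libraries. The summed level of red blood cell genes was 18.2 to 232 FPKM in low-dose and 14.2 to 217 FPKM in high-dose libraries, with Hba-a2 and Hbb-bt listed at 0 throughout. Jsrp1, a muscle junction protein, was at 2.66, 8.36 and 14.9 FPKM in the low-dose libraries and was listed at 0 to 1.51 FPKM in the high-dose libraries (-2.69, adjusted p = 0.00393). Bik, a cell death inducer, ran from 4.37 to 6.68 FPKM and from 1.18 to 2.67 FPKM (-1.18, adjusted p = 0.00337). Cstb, an inhibitor of cathepsins and one of the most abundant transcripts of these tumors, went from 816, 1164 and 1336 FPKM to 332, 369 and 815 FPKM (-1.26 ± 0.24, SE; adjusted p = 0.0152).

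The keratin genes Krt18 and Krt8 and the adhesion gene Epcam were lower in the high-dose libraries. Krt18 went from 4.81, 17.5 and 22.1 FPKM to 1.61, 2.39 and 4.92 FPKM (-2.0 ± 0.36, SE; adjusted p = 0.012 by limma), and its partner Krt8 from 111, 477 and 658 FPKM to 48.3, 96.1 and 220 FPKM (-1.98, adjusted p = 0.0328). The ranges of both overlapped slightly. Krt8 is uncertain for near-identical copies or neighbors and lost its call without any of 7 single libraries (up to 0.0837 without 200 µg replicate 1). Krt18 and Krt8 were the only calls among 8 intermediate filament genes, beside 1.24% of all genes lower. Vim, the mesenchymal filament, had means of 1223 and 1477 FPKM, and Nes, a filament of neural progenitors, 27.8 and 47.9 FPKM. Epcam, an epithelial adhesion protein, fell from 38.9, 60.7 and 82.8 FPKM to 9.35, 25 and 33.2 FPKM (-1.43, adjusted p = 0.0208) and lost its call without untreated replicate 3 or 50 µg replicate 1 (up to 0.0519 without the latter). With the term for the 4 libraries Epcam was at -2.27 (adjusted p = 0.00428), while Krt18 (-2.29, adjusted p = 0.0766), Krt8 (adjusted p = 0.182) and Vgf (-1.24, adjusted p = 0.282) lost their calls. In a group of 6 epithelial genes put together after their values were seen, which holds these 3, Grhl2, an epithelial transcription factor, rose without overlap (0.58, adjusted p = 0.0346), and Esrp2 and Elf3 had differences of 0.07 and 0.03 and were not called. Vgf, a secreted neuropeptide precursor, fell from 47.5, 121 and 245 FPKM to 14.9, 16.7 and 51.0 FPKM (-2.30, adjusted p = 0.0178).

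All 10 tested genes of oligodendrocytes and myelin had negative differences, with a median of -0.74, and 2 of them were called, beside 1.24% of all genes lower. Opalin, a myelin membrane protein, was at 1.47, 4.37 and 11.8 FPKM in low-dose and at 0 to 2.51 FPKM in high-dose libraries (-1.91, adjusted p = 0.0185 by limma), and Mog, a myelin surface glycoprotein, fell by 1.19 on the log2 scale (adjusted p = 0.0391). Opalin lost its call without 200 µg replicate 1 (-1.78, adjusted p = 0.0508), and Mog, which is uncertain for shared transcripts, without any of 10 libraries (up to 0.0885 without 50 µg replicate 1). Mbp, myelin basic protein, had means of 7.69 and 7.28 FPKM. The summed level of the 12 genes was 109 to 257 FPKM in low-dose and 85.3 to 122 FPKM in high-dose libraries, and that of 16 neuronal genes 31.0 to 76.4 and 28.7 to 56.7 FPKM. How far brain tissue in the sample has a part in these differences was not tested.

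Genes of cell division were mostly lower, with 1 gene called in each list. The share of all genes called lower, 1.24%, stands beside each count of calls in this paragraph. Of 21 mitosis genes 19 had negative differences (median -0.27), and only Aurka, a spindle kinase, was called (means 34.1 and 16.0 FPKM, log2 fold change -1.04, adjusted p = 0.0166 by limma). Aurka is uncertain for shared transcripts or copies. Of 20 genes of DNA replication 19 had negative differences (median -0.38), and only Mcm2, a subunit of the replicative helicase, was called (36.6 and 22.8 FPKM, -0.67, adjusted p = 0.047). That call was lost without any of 9 libraries (up to 0.109 without 50 µg replicate 1). Mki67, the common proliferation marker, had means of 24.9 and 20.1 FPKM, and Top2a 82.4 and 83.2 FPKM. The glycolysis and hypoxia list had 23 negative differences of 27, a median of -0.26 and 1 call, Pfkl, which is uncertain and lost its call without any of 9 libraries (-0.85, adjusted p = 0.0363, up to 0.0919 without 200 µg replicate 1). The hypoxia marker Car9 had means of 7.65 and 7.74 FPKM. Members of a list share cells and libraries, so the counts of signs are a description.

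**Figure D5:**
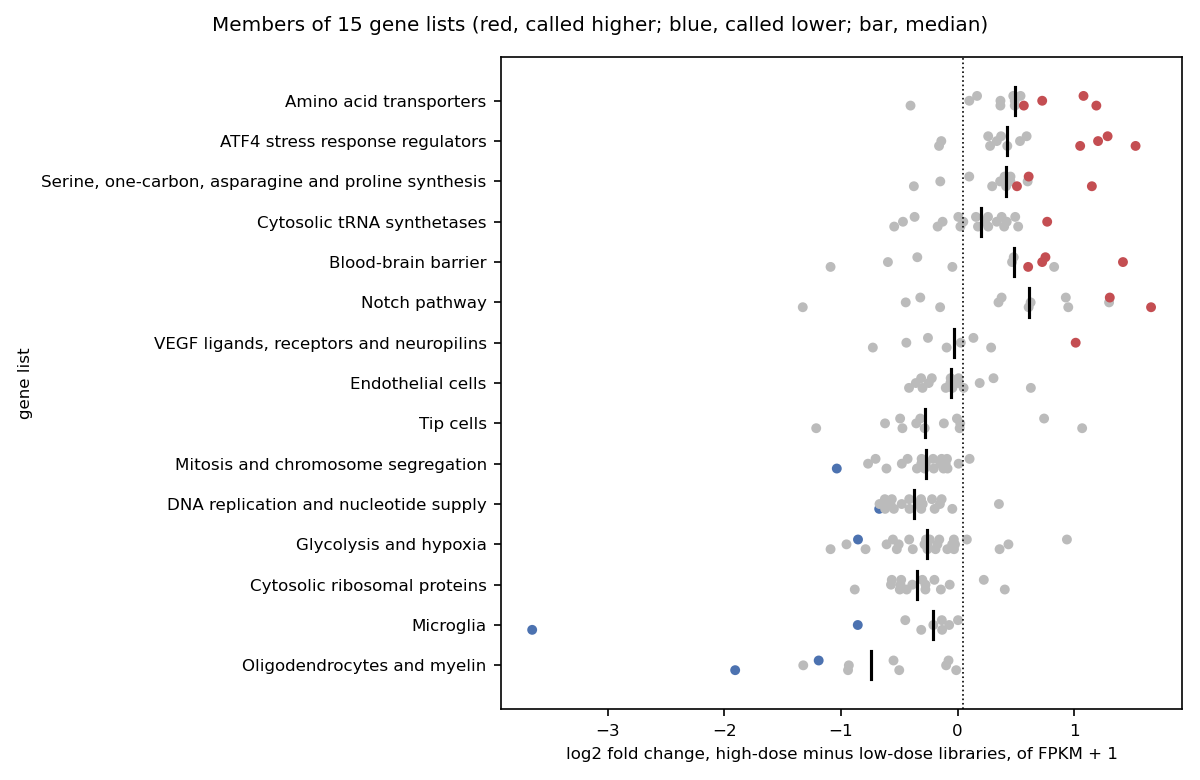
Each point is the log2 fold change of FPKM + 1 (high-dose minus low-dose libraries) of 1 tested gene in 15 lists, red where called higher, blue where called lower and grey otherwise; black bars are list medians and the dotted line is the median of all genes, 0.05. The medians of amino acid transporters (0.49) and of the Notch pathway (0.61) lie to the right, and that of oligodendrocytes and myelin (-0.74) to the left.

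Immune lists held few calls. None of 22 interferon response genes, 8 genes of MHC class II presentation, 13 genes of MHC class I and 15 chemokine genes was called. Over all genes 4.53% were called, so lists of this size can hold no call by their size alone. The medians of these lists were, in the same order, 0.20, -0.38, -0.27 and -0.28. Spp1, osteopontin, a secreted protein of macrophages and glioma cells, went from 27.0, 36.8 and 54.3 FPKM to 54.0, 68.3 and 78.1 FPKM (0.87, adjusted p = 0.0192 by limma), and lost its call without 200 µg replicate 1 (0.83, adjusted p = 0.0515) or 200 µg replicate 2. Acod1, the itaconate enzyme of activated macrophages, ran from 14.1 to 36.6 FPKM and from 4.10 to 13.4 FPKM (-1.41, adjusted p = 0.0208). Its call was lost without 200 µg replicate 1 or 2 (up to 0.0543 without the latter). Cd24a, a surface glycoprotein that restrains phagocytosis, rose from 0.589 to 1.66 FPKM in low-dose to 3.04 to 5.24 FPKM in high-dose libraries (1.16 ± 0.16, SE; adjusted p = 0.00342). Macrophage and monocyte genes summed to 496 to 935 FPKM in low-dose and 709 to 1129 FPKM in high-dose libraries, and T and NK cell genes to 25.1 to 52.8 and 19.6 to 54.0 FPKM. Among complement genes C4b rose, is uncertain for copies or neighbors, and lost its call without 200 µg replicate 1 (0.93, adjusted p = 0.057) or 200 µg replicate 2.

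The calls were not spread evenly over gene length. Higher genes had a median exonic length of 3544 bases and lower genes of 1853.5 bases, beside 2878 bases over all genes tested, and genes under 1000 bases made up 7.71, 19.3 and 12.2%. Small proteins such as Snrpd2, of the spliceosome, and Ndufa5, of respiratory complex I, were among the lower genes with no overlap, at -1.76 (adjusted p = 0.0232 by limma) and -1.26 (adjusted p = 0.00931). Snrpd2 lost its call without untreated replicate 1 or 3 or 50 µg replicate 1 (up to 0.0542 without untreated replicate 3). What part length has in these calls was not tested; with the length trend taken out of each library, 607 genes were called, 381 higher and 226 lower.

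Of the 74 called genes chosen by rule for naming, 42 were called without each library in turn and 19 with the term for the 4 libraries. Regrouping by agent tag kept 28 of the calls, a plain FPKM sum 34, the high-dose set against 50 µg alone 9 and 100 µg alone against the low-dose set 6. The 19 called with the term for the 4 libraries were Csn3, Cp, Lbp, Gstm1, Slc1a4, Timp2, Tnfaip2, Wars, Smad3 and Cd24a among the higher genes, and Tmem119, Epcam, Acod1, Rhd, Cstb, Ift27, Bik, Mtfp1 and Cd14 among the lower genes. Gstm1, a glutathione transferase, rose by 1.48 and Timp2, an inhibitor of matrix proteases, by 1.28 (adjusted p = 0.00393 and 0.000858 by limma), both without overlap. Timp2 was at 7.69 to 11.2 FPKM in low-dose and at 19.7 to 32.4 FPKM in high-dose libraries. Tnfaip2, a gene induced by TNF, rose by 1.37, Ift27, of the ciliary transport complex, fell by 1.26 and Mtfp1, a mitochondrial fission protein, fell by 0.93 on the log2 scale.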

How the data were processed

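The authors deposited, for each library, a table of assembled transcripts with exon coordinates and an FPKM value in its text column (a number of another kind than counts, read here as FPKM). STAR, Cufflinks and the mm10 build are named per the submitters' processing notes; versions are not given in the sources used here. Each library was assembled apart, so a sparse gene can be listed in pieces, touching neighbors can be joined, and a listing of 0 can be a failed assembly.

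Transcripts were assigned with bedtools 2.31.1 to exons of basic transcripts in GENCODE M21 (mm10), ignoring strand, so antisense and overlapping genes cannot be told apart. A gene's value was the sum of FPKM times the share of its exonic length covered. Single-exon transcripts under 200 bases and genes under 200 exonic bases were left out, and the 3 healthy brain libraries were not used. Depth is an estimate from the width of the deposited FPKM intervals. A gene was in pieces when 2 or more transcripts without overlap each covered at least 10% of its exons. Genes are called uncertain where a main transcript also covers another gene in at least 2 libraries, exons overlap another gene by 20%, or 20% of 50-base words are shared with a copy.

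Tests used limma 3.58.1 in R 4.3.3 on log2(FPKM + 1), which understates changes of low genes, for genes with a mean of at least 1 FPKM, as 2 sets of 6 or as 4 dose groups of 3, two-sided, adjusted by Benjamini-Hochberg over all genes tested. The fit was tested on simulated data with planted folds, drawn independently for each gene and library. Those data hold no libraries that stand apart together, so they do not check the fit for that feature. Library properties used exact permutation over all 924 splits.

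The comparison, the gene lists (54 lists, 584 genes tested) and the tests were chosen with earlier results of these data known. Named genes were, among called protein-coding or long non-coding genes without overlap or uncertainty and with a mean of at least 5 FPKM in the higher set, the 12 largest folds and 5 smallest p-values each way, up to 4 called members per list, all VEGF genes, Atf4 and Ddit3. The other alternatives were pseudocounts, filters, scalings, a plain FPKM sum, the replicate block, regrouping by agent tag and leaving out libraries. Regrouping by agent tag put 50 µg replicate 3 in the high-dose set and left out 200 µg replicate 3. Lists given by count only are summarised in the closing section, and some genes are not reported here. The 4 libraries with few genes in pieces were fixed by an earlier definition and are the same 4 here.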

Additional observations from a re-analysis of the deposited data

Results flagged for a closer look

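A library far from the other 5 of its set was looked for by Dixon's test in 172 sets of values, and 9 were found, 5.23%; chance gives about 1 in 20. Tmem119 was at 18.4 FPKM in 100 µg replicate 3 against 4.03 to 8.26 FPKM in the other high-dose libraries, and still below every low-dose library. Replicate 3 at 50 µg stood apart for Ubd, an interferon-induced ubiquitin-like protein, at 53.6 FPKM against 9.98 to 20.7 FPKM, and for Xcr1, a dendritic cell receptor, at 0.852 FPKM against 3.36 to 4.22 FPKM. The same library had 27.9% of genes in pieces against 14.8 to 17.8% and listed 88071 transcripts against 45477 to 49201. Untreated replicate 1 was high for Insr, the insulin receptor, at 7.06 FPKM against 5.01 to 5.53 FPKM, and for Kdr at 5.12 FPKM against 1.76 to 2.68 FPKM. Opalin was at 2.51 FPKM in 200 µg replicate 3 against 0 to 0.781 FPKM in the other high-dose libraries. Estimated depth was 28.1 M fragments in 200 µg replicate 2 against 20.8 to 22.9 M.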

How the results depend on the processing

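The count of 643 calls was 535 with a pseudocount of 0.1, 637 with 5, 791 with no filter, 480 at a mean of at least 5 FPKM, 608 with median-of-ratios and 596 with quantile scaling, 666 with trend and robust options, 701 as 4 dose groups and 593 among genes not joined or overlapping. It moved by over 1.5 times with a plain FPKM sum (224, of which 141 shared; median of all genes -0.11 against 0.05; 122 lower and 102 higher), regrouping by agent tag (270, 105 higher and 165 lower), leaving out the 4 replicate 3 libraries (393, 237 higher), the added term for the 4 libraries (88), 100 µg alone (14) or 200 µg alone (1755) against the low-dose set, and the high-dose set against untreated (228) or 50 µg (17) alone. Directions of the 643 were kept under these alternatives, except that 604 kept theirs under the plain sum. The alternatives use libraries that chose the genes, so kept directions are a description. Of the 74 named genes that were called only Slc7a11 turned, to -0.15 under the plain sum (adjusted p = 0.916 by limma). Leaving out single libraries gave 237 (without 200 µg replicate 1) to 970 (without 100 µg replicate 2) calls, with 258 without 200 µg replicate 2, 268, 299, 370 and 393 without 50 µg replicate 1 and untreated replicates 3, 2 and 1, and 966 without 50 µg replicate 3. Quantile scaling gave 64.9% higher calls, the length trend removed 62.8%, and leaving out 50 µg replicate 3 57.3%. Alternatives added after seeing the data gave 818 without replicate 3 of 50 and 100 µg together, 607 with the length trend removed, 661 at 1000 exonic bases or more, and 317 among 7998 genes in pieces in no library. The cause of these moves was not tested. Calls between untreated and 50 µg were 1 with a pseudocount of 0.1, with no filter or with a plain sum, and 0 to 6 without single libraries. Calls between 50 and 100 µg were 2, 22 and 3 under the same settings and 0 to 16. Calls between 100 and 200 µg were 4 with a pseudocount of 0.1, 5 with median-of-ratios scaling, and 3 to 572 without single libraries, the latter without 100 µg replicate 3. The difference in genes listed in pieces, -9.19 percentage points, was -10.6 to -7.20 without single libraries. Replicate numbers did not pair the samples, since deviations of same-numbered libraries correlated at -0.07 to 0.13; the replicate block gave 505 calls, 465 of them shared, and 2 between 100 and 200 µg. Of 74 named called genes, 63 kept their calls with the block and 32 lost them without some single library. Low genes and short genes are limited by depth and assembly.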

Other observations

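Further groups were put together after their values were seen, so their counts support nothing on their own. Among 14 genes of Sprouty and Spred inhibitors, ERK phosphatases and Etv factors, which growth factor signaling through ERK induces, 6 rose (Dusp6, Etv5, Spry4, Dusp4, Spry2 and Etv1) and none fell, with a median of 0.50, beside 3.29% of all genes higher. Dusp6, an ERK phosphatase, had means of 99.6 and 192 FPKM in low-dose and high-dose libraries with no overlap (log2 fold change 0.94, adjusted p = 0.0074 by limma). Among 14 glutathione transferases 6 rose, with Mgst1 at means of 3.61 and 13.7 FPKM (1.66, adjusted p = 0.0035) and Gstm1 at 4.34 and 14.2 FPKM, while the abundant Gstp1 was at 176 and 144 FPKM and was not called. The Gstm genes lie in a cluster of similar sequences.

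Thbs2, a thrombospondin that restrains vessel growth, had means of 35.1 and 79.2 FPKM (1.11, adjusted p = 0.0144 by limma). Of 3 thrombospondins 2 rose, beside 3.29% of all genes higher, and Thbs1 had a difference of -0.31 and was not called. Of 4 Timp genes 2 rose, Timp2 and Timp3, while Timp1 had a difference of -0.62 and was not called. Timp3, which is uncertain for overlap or copies, had means of 23.1 and 48.8 FPKM (1.04, adjusted p = 0.0141). The laminin chains Lama5 and Lamb2 rose by 1.01 each, and Lamc1 had a difference of 0.06. Of 10 genes of endothelial nitric oxide, caveolae and coagulation 6 rose and 1 fell, with a median of 0.66. Over all genes 3.29% were higher and 1.24% lower. The fall was that of Nos3, the endothelial nitric oxide synthase, from a mean of 26.9 to 11.8 FPKM (-1.08, adjusted p = 0.0485 by limma). Nos3 is uncertain for shared transcripts. Cavin2, a coat protein of caveolae, rose by 1.78 (adjusted p = 0.00503). All 19 tested genes grouped by symbol as Sm and LSm genes had negative differences, with a median of -0.37. Of these 4 were called, Snrpd2, Lsm7, Lsm3 and Snrpg, beside 1.24% of all genes lower.

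Of the lists not described above, 1 gene of 19 fell in the respiratory chain list, beside 1.24% of all genes lower. This was Cox6c, which lost its call without any of 10 single libraries (adjusted p by limma up to 0.108 without 200 µg replicate 1). None was called among ribosomal, mitochondrial ribosomal, cholesterol, semaphorin, imprinted, immediate early, neuronal, choroid plexus, meningeal, muscle, neutrophil and oligodendrocyte precursor genes. Over all genes 4.53% were called. The choroid plexus, meningeal and muscle lists had only 2 tested genes each and the neutrophil list 1, so their lack of calls says little. Among single genes of other lists Herpud1 of protein quality control rose by 0.98, Epha2, a receptor kinase, fell by 1.81 and Slc1a3, the astrocyte glutamate carrier, rose by 0.71 on the log2 scale (adjusted p = 0.0173, 0.0345 and 0.0412 by limma). Epha2 and Slc1a3 lost their calls without any of 8 and 9 single libraries, at up to 0.0816 without 50 µg replicate 1 and 0.0969 without 200 µg replicate 2.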
